A study of Mus musculus with 6 samples.

Results

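The genes described here encode 10 transcription factors that direct the myeloid branch of blood formation: the C/EBP factors Cebpa, Cebpb, Cebpd, Cebpe and Cebpg, the ETS factor Spi1 (PU.1), the zinc finger factors Gfi1 and Klf4, the interferon regulatory factor Irf8 and the core binding factor subunit Runx1. They were chosen by name, as array probe sets annotated with exactly 1 gene symbol, and each of the 10 had 1 such probe set among the 19937 genes tested. The cells were mouse haematopoietic stem and progenitor cells transformed by expression of the homeobox genes HoxA9 and Meis1, a model of acute myeloid leukaemia, kept in serum-containing medium with stem cell factor, interleukin-6 and interleukin-3. One group received the solvent DMSO for 5 days (3 arrays, the control group) and the other received UNC0638 for 5 days (3 arrays), an inhibitor of the histone-modifying enzymes G9a and GLP. Both groups carry HoxA9 and Meis1, so no untransformed cells were compared. The labels give no dose, no number of clones and no statement that the replicates were separate cultures, so the p-values may reflect technical spread only.

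G9a and GLP place mono- and dimethyl marks on lysine 9 of histone H3, a modification found at silenced genes. In the bone marrow, PU.1 and C/EBPα open the myeloid program in progenitors. C/EBPε and Gfi1 then act in the maturation of granulocytes, and Irf8 and Klf4 act in monocytes. Runx1, joined to its partner Cbfb, acts upstream of PU.1, and HoxA9 is known to bind many enhancers together with C/EBPα and PU.1. The comparison asked how the transcripts of these factors stood after the methyltransferases had been inhibited.

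After UNC0638, 0 of the 10 genes passed the threshold of 0.05 on the adjusted p of limma, a linear model test with Benjamini-Hochberg adjustment over all genes, while 0.672% of all genes tested did, 0.371% upward and 0.301% downward. At an unadjusted limma p under 0.05 there were 2 of the 10, Klf4 and Runx1, both higher, against 12.7% of all genes (6.47% higher and 6.21% lower). The median log2 difference of the 10 was 0.17, beside 0.01 for all genes tested, and 8 of the 10 lay above 0, as did 53.9% of all genes. Differences are on the scale of log2(intensity + 16), UNC0638 minus DMSO. Each 95% interval, from the same fit and not adjusted for the number of genes, lay within 2-fold in either direction, the widest reach being that of Klf4 to 0.71. The median was 0.09 without DMSO 3, the array on which 9 of the 10 genes had their lowest DMSO value.

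**Figure D1:**
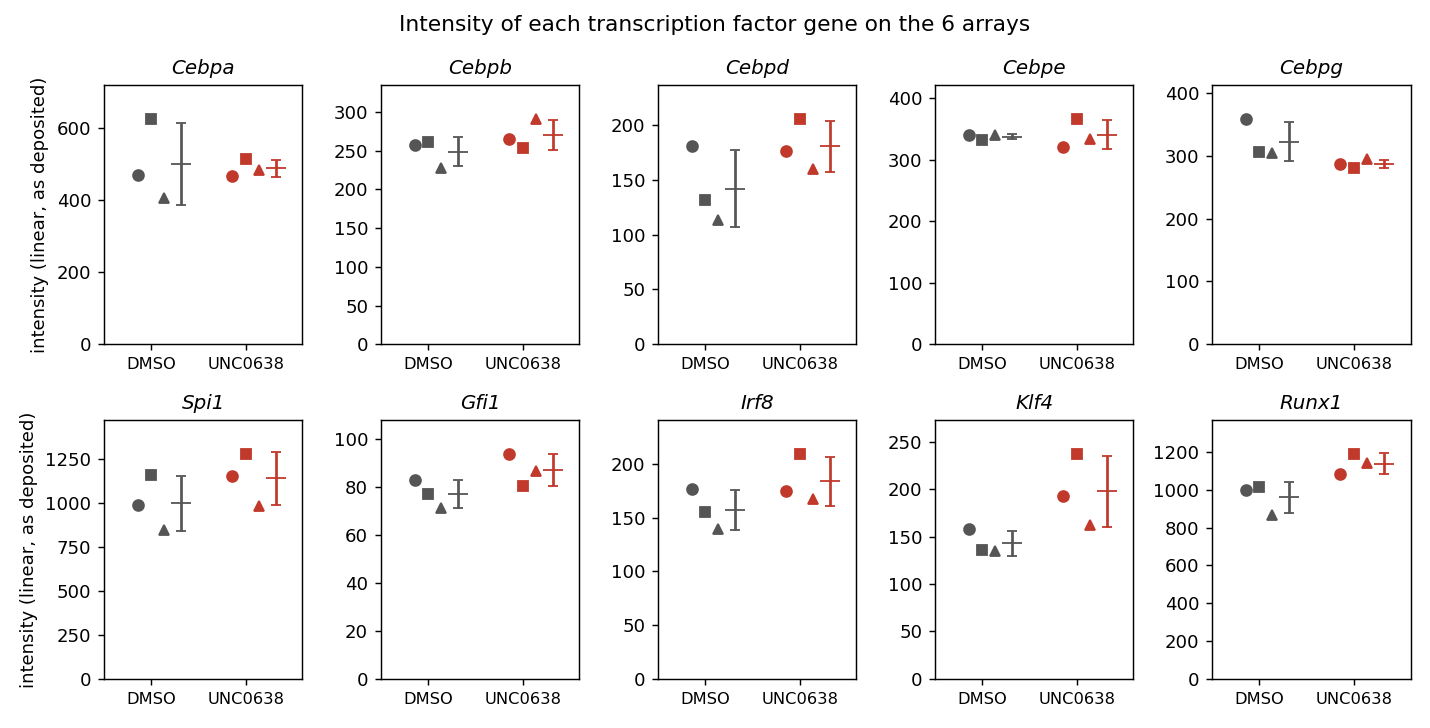
Intensity as deposited (linear scale, each vertical axis from 0) of the 10 genes on the 3 DMSO arrays (grey) and the 3 UNC0638 arrays (red); circle, square and triangle are replicates 1, 2 and 3, and the bar gives mean ± SD. The groups do not overlap for Klf4, Runx1 and Cebpg and overlap for the other 7 genes.

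Across the 6 arrays the median intensity of all probe sets ran from 50.4 to 54.9. The 8 genes listed as markers of immature myeloid blood cells were Ptprc, Kit, Cd34, Flt3, Cd33, Itgam, Hoxa9 and Meis1. They are not all confined to immature cells, and had mean intensities of 216 to 3033. The markers of T cells (5 measured) and B cells (3 measured) had 15.7 to 52.7. Levels of different probe sets cannot be set against each other and no detection calls were used, so these values do not test the label of the cells. Among the markers of T cells, B cells, erythroid cells (2 measured), megakaryocytes (3) and fibroblasts (5), 0 passed limma, and 2 of the T cell and 1 of the B cell markers were higher at an unadjusted p under 0.05. For megakaryocytes 1 was lower at that p, the platelet chemokine Pf4, named after its value was seen: it read 572, 633 and 833 in DMSO and 545, 379 and 357 in UNC0638, with no overlap (log2 difference -0.66, limma adjusted p = 0.164). The introduced genes Hoxa9 and Meis1 did not pass the test. Of the 8 genes listed as immature markers 0 passed, and 4 were higher and 0 lower at an unadjusted p under 0.05. The shares of all genes were 6.47% and 6.21%. The 4 were Ptprc, Cd34, Cd33 and Itgam, while Kit and Flt3 had differences of 0.03 and 0.07 with overlapping groups. These genes were named after their values were seen. Cd33, named after its value was seen, had a difference of 0.45 with no overlap (limma adjusted p = 0.055). It passed after quantile normalization, with a trended robust prior and with array weights. Of the 5 mast cell markers 2 rose (0.371% of all genes did), Tpsb2 (0.69, adjusted p = 0.0164) and Cma1 (0.73, adjusted p = 0.0181). At an unadjusted p under 0.05, 4 of the 5 were higher (6.47% of all genes). The exception was Cpa3, at 0.14 with overlapping groups (limma adjusted p = 0.662). The summed intensity of the 5 was 6413 to 7219 in DMSO and 8204 to 8660 in UNC0638, with none of the 5 at 0. Both calls were lost without DMSO 2 (0.0636 for Tpsb2 and 0.0576 for Cma1), UNC0638 1 (0.0827 for both) or UNC0638 2 (0.0908 and 0.0943), and that of Tpsb2 without DMSO 1 (0.0528). With the replicate number as a block the adjusted p was 0.0623 for Tpsb2 and 0.0579 for Cma1. The part of such cells in the values below was not tested. In bulk RNA, fewer cells of a type and less RNA per cell cannot be told apart.

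Of the C/EBP family, Cebpa encodes the factor that is needed for progenitors to enter the granulocyte and monocyte path. Its probe set (10552140) read 470.2, 625 and 404 in DMSO and 466, 514 and 484 in UNC0638. All 3 UNC0638 values fell inside the range of the controls, which was set by a high DMSO 2 and a low DMSO 3. The means were 499.8 ± 113 and 488 ± 24.2 (SD, n = 3 each), with a log2 difference of -0.01 (SE 0.144, 95% interval -0.34 to 0.32, limma adjusted p = 0.987). The sign of this value turned: it was 0.16 without DMSO 2, 0.02 without UNC0638 1 and 0.01 after quantile normalization.

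Cebpb, which takes over granulocyte production under cytokine demand, read 257, 262 and 227 in DMSO and 265, 254 and 291 in UNC0638. The groups overlapped, with UNC0638 3 the highest array and DMSO 3 the lowest. The means were 248.8 ± 18.7 and 270.2 ± 19.2 (log2 difference 0.11, 95% interval -0.09 to 0.32, limma adjusted p = 0.692). The difference was 0.053 without DMSO 3 and 0.060 without UNC0638 3.

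Cebpd, an inducible member that responds to inflammatory cytokines, read 181, 132 and 113 in DMSO and 176, 206 and 159.8 in UNC0638. DMSO 1 lay above UNC0638 1 and UNC0638 3, while DMSO 2 and DMSO 3 lay below every treated array. The DMSO arrays varied by a coefficient of variation of 24.8%, the largest of the 10 genes. The means were 142 ± 35.2 and 181 ± 23.3. The log2 difference of 0.33 was the second largest of the 10 (95% interval -0.03 to 0.69, limma adjusted p = 0.449), and it ran from 0.20 without DMSO 3 to 0.50 without DMSO 1.

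Cebpe, needed for the secondary granules of neutrophils, was the most even gene in the controls. It read 339.7, 333 and 341 in DMSO and 321, 367 and 334 in UNC0638, so that the treated arrays lay on both sides of the controls. The means were 338 ± 4.32 and 340.4 ± 23.6 (log2 difference 0.01, 95% interval -0.17 to 0.19, limma adjusted p = 0.983). The sign turned to -0.04 under median centring and without UNC0638 2, and was near 0 at -0.0012 without DMSO 2.

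Cebpg, a short member with no activation domain that pairs with other basic leucine zipper proteins, was the 1 gene of the 10 whose treated arrays all lay below the controls. It read 359, 306 and 304 in DMSO and 287, 281 and 295 in UNC0638, and the gap between the groups was small because DMSO 2 and DMSO 3 stood close to the treated arrays. The means were 323 ± 31.4 and 288 ± 6.77 (log2 difference -0.16, 95% interval -0.36 to 0.05, limma adjusted p = 0.541). Without DMSO 1 the difference was -0.08. Groups that do not overlap with UNC0638 lower made up 7.40% of all genes. In the RefSeq gene table of GRCm38.p6, Cebpg and Cebpa are close neighbours with 2 gene models between them, and neither gene of this pair passed the test.

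Spi1 encodes PU.1, whose level sets the choice between monocytes, granulocytes and lymphoid cells. It read 991, 1163 and 849 in DMSO and 1158, 1283 and 983 in UNC0638. Both groups had their highest value on replicate 2 and their lowest on replicate 3, and they overlapped widely. The means were 1001 ± 157 and 1142 ± 151 (log2 difference 0.19, SE 0.136, 95% interval -0.12 to 0.50, limma adjusted p = 0.652). The value was 0.08 without DMSO 3 and 0.10 without UNC0638 2, against 0.30 without DMSO 2 and 0.29 without UNC0638 3.

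**Figure D2:**
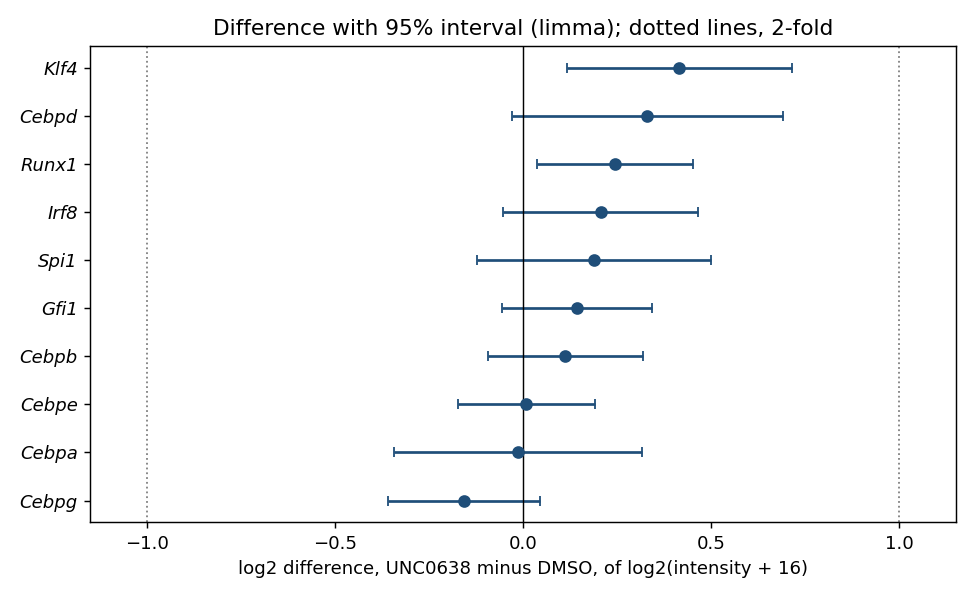
Log2 difference (UNC0638 minus DMSO, of log2(intensity + 16)) of each of the 10 genes, as a point with its 95% interval from limma; dotted lines mark 2-fold. The intervals of Klf4 (0.12 to 0.71) and Runx1 (0.04 to 0.45) lie above 0, the other 8 include 0, and none reaches a dotted line.

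Gfi1 and Irf8 stand on opposite sides of the choice between granulocytes and monocytes. Gfi1, a repressor that holds back monocyte genes in granulocyte precursors, read 83.0, 77.1 and 71.4 in DMSO and 93.9, 80.4 and 86.7 in UNC0638. DMSO 1 exceeded UNC0638 2, so the groups overlapped by 1 array on each side. The means were 77.2 ± 5.80 and 87.0 ± 6.78 (log2 difference 0.14, 95% interval -0.06 to 0.34, limma adjusted p = 0.576).

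Irf8, which drives monocyte and dendritic cell fate, read 177, 155 and 139 in DMSO and 174, 209.7 and 167 in UNC0638. DMSO 1 lay above 2 of the treated arrays. The means were 157 ± 19.0 and 184 ± 22.6 (log2 difference 0.21, SE 0.113, 95% interval -0.05 to 0.47, limma adjusted p = 0.524). The difference was 0.12 without UNC0638 2 and 0.13 without DMSO 3. Irf8 was set beside the other interferon regulatory factors: 0 of 7 that were measured passed limma, and 4 had an unadjusted p under 0.05, against 12.7% of all genes. Irf7, an amplifier of the type I interferon response, had the largest difference among the paralogs of the 10 factors. It read 58.2, 82.7 and 84.5 in DMSO and 48.5, 47.6 and 43.2 in UNC0638, all lower (log2 difference -0.53, 95% interval -0.81 to -0.25, limma adjusted p = 0.11), and it passed without DMSO 1 (-0.67, adjusted p = 0.0338). Irf9 had a difference of -0.44, and Irf1 and Irf5 had one of 0.36 each (adjusted p = 0.321, 0.29 and 0.142). These 3 were named after their values were seen. The difference between Irf8 and Irf7 was itself not tested.

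Because the members are known to regulate one another, the RefSeq promoter windows of GRCm38.p6 (250 bases before to 50 after each start site) were searched on both strands for 5 motifs. Windows were matched for 7 of the 10 genes, 10 windows in all, and not for Cebpd, Cebpe or Spi1. The C/EBP motif TTGCNNAA was in 1 of the 10 windows, the more upstream window of Gfi1, and in 10.8% of all 32851 windows. The PU.1-type ETS motif GAGGAA was in 1 (28.3% of all), at the proximal start of Runx1, and the RUNX motif TGTGGT was in 1 (16.8% of all), at the distal start of Runx1. The ISRE motif GAAANNGAA, read by interferon regulatory factors, was in 0 (8.56% of all). The TATA box letters TATAAA were in 3 (13.6% of all). They lay at -30 in Cebpa, at -31 in the more upstream window of Irf8, and at 22 bases into the transcript in Cebpb. A match is only these letters in the window, and says nothing of binding in these cells.

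The stretches below are shown because each holds the motif of one of the 10 factors in the window of another or of itself. For Gfi1 the capitals mark the C/EBP motif at -143 (chr5:107725906-107725985, minus strand). For Runx1 they mark 2 RUNX motifs, read on the opposite strand, at 29 and 37 bases into the transcript from the distal start (chr16:92826025-92826054, minus strand), and the ETS motif, also on the opposite strand, at -46 from the proximal start (chr16:92697335-92697414, minus strand). No match shown here overlaps a match to another of the 5 motifs.
Gfi1: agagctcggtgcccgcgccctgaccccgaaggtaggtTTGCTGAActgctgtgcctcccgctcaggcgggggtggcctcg
Runx1 distal: cataaacaACCACAgaACCACAagttgggt
Runx1 proximal: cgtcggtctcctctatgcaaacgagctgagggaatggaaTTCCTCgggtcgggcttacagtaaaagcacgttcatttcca

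Klf4, a zinc finger factor that promotes monocyte differentiation downstream of PU.1, had the largest difference of the 10. It read 158, 136 and 135 in DMSO and 192, 237 and 163 in UNC0638. Each treated array exceeded each control, although UNC0638 3 did so by little, and the treated arrays spread more widely than the controls. The means were 143 ± 13.1 and 197 ± 37.7 (log2 difference 0.42, SE 0.131, 95% interval 0.12 to 0.71, limma adjusted p = 0.224). The difference was greater than that of 98.1% of all genes tested. It ran from 0.28 without UNC0638 2 to 0.54 without UNC0638 3, where its adjusted p of 0.146 was the lowest of any of the 10 under any alternative. Of 11 other Krüppel-like factors measured, 0 passed limma and 1 had an unadjusted p under 0.05 (12.7% of all genes). It was Klf2 at 0.29, named after its value was seen.

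Runx1, known in human leukaemia as AML1, was the other gene whose treated arrays all lay above the controls. It read 999, 1016 and 864 in DMSO and 1081, 1191 and 1141 in UNC0638. The lowest treated array stood just above the highest control. The means were 959 ± 82.9 and 1138 ± 55.5 (log2 difference 0.24, SE 0.091, 95% interval 0.04 to 0.45, limma adjusted p = 0.302), and the value without DMSO 3 was 0.17. Its partner Cbfb had a difference of -0.01 and its paralog Runx3 one of -0.0035 (limma adjusted p = 0.987 and 0.996). In 2 of the 10 genes the treated arrays all lay higher, against 9.59% of all genes, and in 3 of the 10 the groups did not overlap in either direction, against 17.0% of all genes.

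Within the DMSO group, DMSO 3 held the lowest value for 9 of the 10, Cebpe being the exception, while it was the lowest array for 32.1% of all genes tested. Within the UNC0638 group, UNC0638 2 held the highest value for 7 of the 10, against 37.7% of all genes, and the lowest for the other 3 (Cebpb, Cebpg and Gfi1), against 28.0% of all genes. Relative to the mean of the controls, the median of the 10 was 0.07 on DMSO 1, -0.0043 on DMSO 2 and -0.13 on DMSO 3. With UNC0638 it was 0.16, 0.21 and 0.12 in the same order. The same medians over all genes stayed between -0.0095 and 0.025. The upper quartile of all probe sets was 197, 189 and 186 on DMSO 1, 2 and 3. For UNC0638 it was 188, 189 and 193. Whether the arrays differed at the intensities of the 10 genes was not tested.

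**Figure D3:**
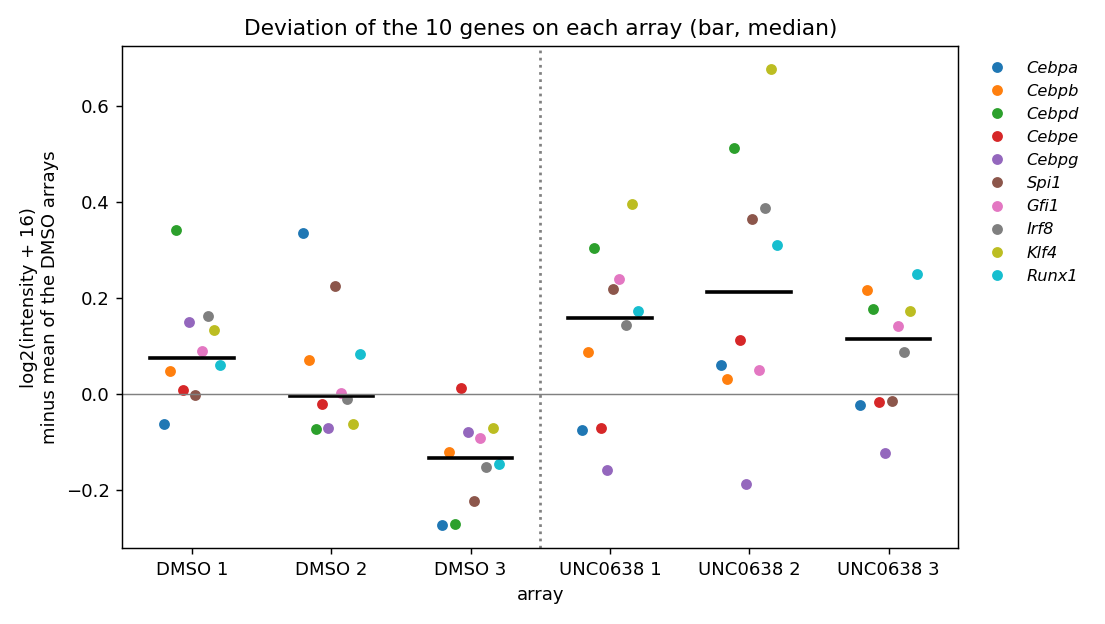
Log2(intensity + 16) of each of the 10 genes on each array, minus the gene's mean over the DMSO arrays; the black bar is the median of the 10. The bars lie at 0.07, -0.0043 and -0.13 for DMSO and at 0.16, 0.21 and 0.12 for UNC0638, and Cebpg lies below 0 on all 3 UNC0638 arrays.

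Genes that work beside the factors were read from lists of known function. Of 23 measured paralogs, 0 passed. At an unadjusted limma p under 0.05, 5 were higher and 2 lower (6.47% and 6.21% of all genes). The median difference of the paralogs was 0.13 (0.083 without DMSO 3, 0.072 without UNC0638 2 and 0.087 without UNC0638 3). Among 21 partners and regulators were Cbfb and the stem cell factors Fli1, Erg, Gata2, Tal1, Lmo2 and Lyl1. The corepressor subunits Kdm1a, Rcor1, Hdac1 and Hdac2 were also listed. Of these 21, 0 passed and 1 had an unadjusted p under 0.05 (12.7% of all genes). That gene was Jun, an AP-1 subunit known to act as a coactivator of PU.1. It read 338, 391 and 319 in DMSO and 498, 572 and 498 in UNC0638, with no overlap (log2 difference 0.56, 95% interval 0.33 to 0.79, limma adjusted p = 0.0568), and it passed when dim genes were left out (0.0399). The median of that list was 0.04. It was 0.020 without DMSO 3, and turned to -0.0017 without UNC0638 2 and -0.0080 under median centring.

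The primary granules are made at the promyelocyte stage under C/EBPα, PU.1 and Runx1. The 8 genes listed with them (Mpo, Elane, Prtn3, Ctsg, Prss57, Ms4a3, Lyz1 and Lyz2) are not all confined to these granules. Their median was -0.05 (with 1 array left out, from -0.11 without UNC0638 1 to -0.011 without UNC0638 2). Of the 8, 0 passed and 1 was higher at an unadjusted p under 0.05 (6.47% of all genes). It was the lysozyme gene Lyz2 at 0.28 (limma adjusted p = 0.291). Of 10 growth factor receptors and adhesion molecules, known targets of PU.1 and C/EBP factors, 0 passed, with a median of 0.19 (0.12 without DMSO 3). At an unadjusted p under 0.05, 4 were higher and 1 lower (6.47% and 6.21% of all genes). In 5 the treated arrays all lay higher and in 1 all lower (9.59% and 7.40% of all genes). Csf1r, the receptor for macrophage colony-stimulating factor, read 644, 491 and 515 in DMSO and 745, 897 and 738 in UNC0638. It did not overlap between the groups (log2 difference 0.52, 95% interval 0.24 to 0.80, limma adjusted p = 0.12). Csf3r, the receptor for granulocyte colony-stimulating factor, was at 0.25 with overlapping groups (limma adjusted p = 0.445) and was named after its value was seen. So was the integrin Itgam at 0.46 (0.0709), which passed after quantile normalization (0.0494). Itgam is also in the list of immature markers, so the counts of both lists include it. The 1 lower gene was Fcgr1 at -0.35 with no overlap (limma adjusted p = 0.224), also named after its value was seen.

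The 10 genes listed as late granule genes were Ltf, Lcn2, Camp, Ngp, Mmp8, Mmp9, Cd177, Hp, S100a8 and S100a9. Whether each depends on C/EBPε was not tested. Of these 10, 1 rose (0.371% of all genes did). All 10 had differences above 0 (53.9% of all genes), with a median of 0.22. The count above 0 was 9 of the 10 under median centring, without DMSO 3 and without UNC0638 1. At an unadjusted limma p under 0.05, 4 were higher and 0 lower (6.47% and 6.21% of all genes). In 6 the treated arrays all lay higher, against 9.59% of all genes. The gene that rose was Ltf, which encodes lactoferrin of the secondary granules. It read 54.6, 85.1 and 64.2 in DMSO and 122, 122 and 133 in UNC0638 (log2 difference 0.77, SE 0.128, limma adjusted p = 0.0437), while Cebpe itself stood at 0.01. The call was lost without DMSO 1 (0.082), DMSO 3 (0.11), UNC0638 1 (0.132), UNC0638 2 (0.149) or UNC0638 3 (0.124), and under median centring, the replicate block and a pseudocount of 64 (0.059, 0.0754 and 0.0921).

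Of 10 measured monocyte genes 1 rose (0.371% of all genes did) and 5 were higher at an unadjusted p under 0.05 (6.47% of all genes), and the median was 0.31. Mpeg1, a pore-forming protein of macrophages, read 847, 757 and 825 in DMSO and 1167, 1155 and 1149 in UNC0638 (log2 difference 0.51, SE 0.078, limma adjusted p = 0.0343). Leaving out any 1 array lost the call: the adjusted p without 1 control array was 0.0642 (DMSO 1), 0.126 (DMSO 2) or 0.0841 (DMSO 3). Without 1 treated array it was 0.118 (UNC0638 1), 0.123 (UNC0638 2) or 0.099 (UNC0638 3). It was also lost under median centring (0.0561), the replicate block (0.0798) and a pseudocount of 1 (0.0753). Ly86, named after its value was seen, had a larger difference of 1.00 that did not pass (adjusted p = 0.0573) and passed without DMSO 1 (0.0298), when dim genes were left out (0.0221), with a trended robust prior (0.0227) and with a pseudocount of 1 (0.0366). Factors of other lineages (erythroid Gata1, Nfe2 and Zfpm1, B-lymphoid Pax5, Ebf1 and Pou2af1, T-lymphoid Gata3, Bcl11b, Lef1 and Tbx21) had a median of 0.01, which turned to -0.0058 after quantile normalization and -0.03 under median centring. With 1 array left out it turned to -0.027 (DMSO 1), -0.011 (UNC0638 1) and -0.00099 (UNC0638 2), and was 0.048 without DMSO 2 and 0.078 without UNC0638 3. Of these 10, 0 passed and 0 had an unadjusted limma p under 0.05 (12.7% of all genes). The largest difference was that of Gata1 at 0.12 (limma adjusted p = 0.676).

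**Figure D4:**
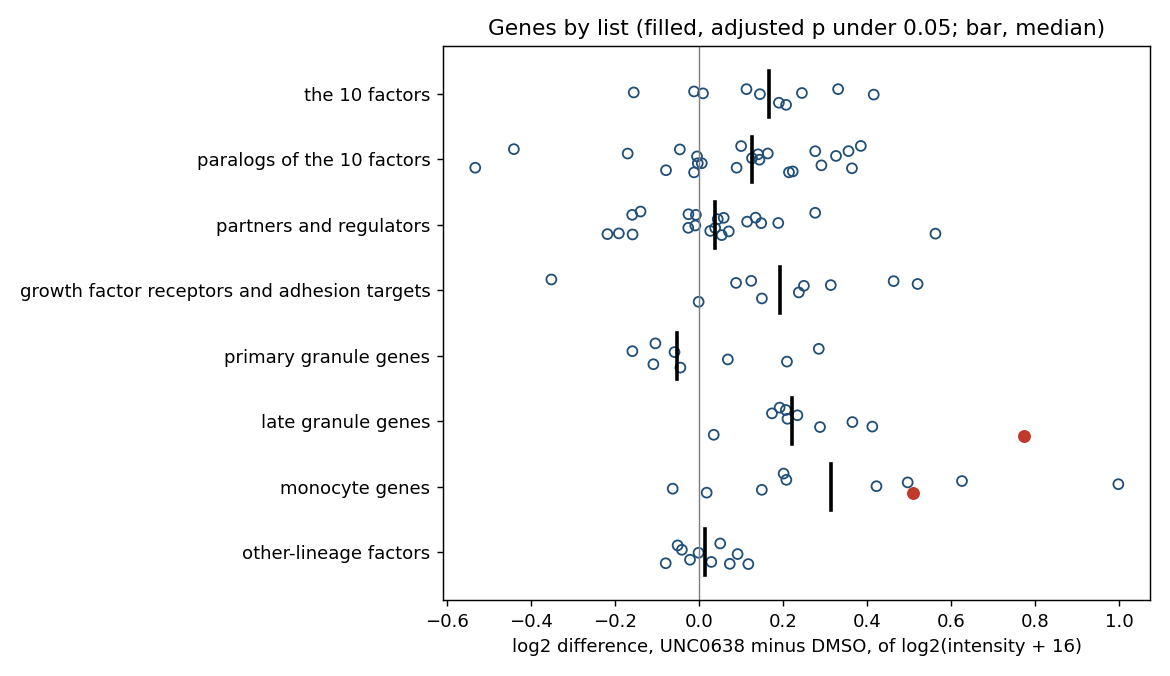
Log2 difference (UNC0638 minus DMSO, of log2(intensity + 16)) of each measured gene of the 10 factors and of 7 lists of related genes; filled points passed an adjusted limma p of 0.05 and bars are medians. The 10 factors, with a median of 0.17, hold no filled point, and the 2 filled points are Ltf among late granule genes and Mpeg1 among monocyte genes.

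Over 9 other ways of processing and 6 fits that each left out 1 array, 0 of 150 refitted differences of the 10 genes passed the threshold. The signs of 8 of the 10 genes held in all 15 fits, and those of Cebpa and Cebpe, both near 0, turned in 3 each.

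**Figure D5:**
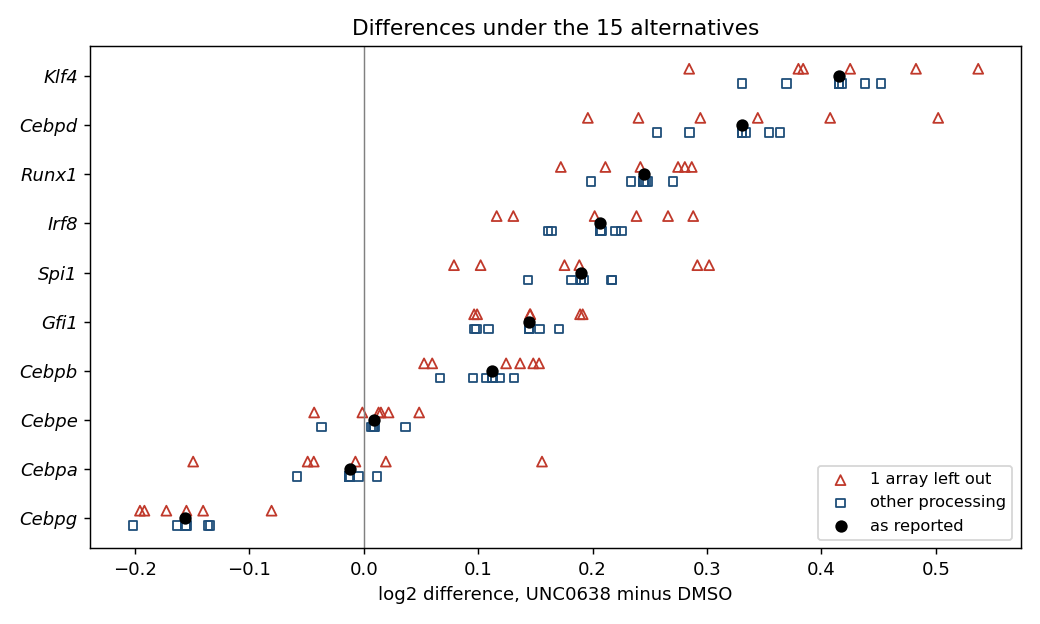
Log2 difference of each of the 10 genes as reported (black), with 1 array left out (triangles) and under 9 other ways of processing (squares). Klf4 stays between 0.28 and 0.54 and Cebpg between -0.20 and -0.08, while Cebpa and Cebpe have points on both sides of 0.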

How the data were processed

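Biotinylated cRNA from total RNA was hybridised to Affymetrix mouse gene arrays, per the labels' protocols and the platform annotation. The deposited table holds 1 linear intensity per probe set and array (34760 probe sets, 6 arrays). How the authors corrected, summarised and normalized these intensities is not given in the sources used here, and prior normalization could shrink or shift small differences. Of these probe sets 21640 carry 1 gene symbol, 1321 several and 11799 none. Per gene the probe set with the highest mean was kept, giving 19937 genes. Intensities were transformed as log2(value + 16), which understates differences of dim genes, and the groups were compared with limma 3.58.1 under R 4.3.3, by lmFit and eBayes on group alone, two-sided, with Benjamini-Hochberg adjustment and a threshold of 0.05. No detection calls were used, and the number of arrays limits the precision.

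The 10 genes, the 7 lists of related genes and the 7 marker lists were chosen by known function, with earlier results of these data known. In each list of related genes, the genes past the threshold (at most 3 each way) are named, or otherwise the 1 with the largest difference. The procedure was tested on simulated data only for recovering the size of large shifts. No requirement was set on false calls or on differences as small as those of the 10 genes. Alternatives were quantile normalization, median centring, leaving out the dimmest 40% of genes, the mean of a gene's probe sets, the replicate number as a block, a trended robust prior, array weights, pseudocounts of 1 and 64 and each array left out. Promoter windows are those of RefSeq (GRCm38.p6). Figures were drawn with matplotlib 3.10.9.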

Additional observations from a re-analysis of the deposited data

How the results depend on the processing

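None of the 10 genes passed under any of the 15 alternatives, and the median of the 10 stayed between 0.09 without DMSO 3 and 0.19 without UNC0638 3, or between 0.12 and 0.19 under the other settings. The difference of Cebpa turned to 0.011 after quantile normalization and ran from -0.149 to 0.156 with 1 array left out. That of Cebpe turned to -0.037 under median centring and ran from -0.043 to 0.048 with 1 array left out. Over all genes the count of 134 called was 192 with the dimmest 40% of genes left out, 182 with the trended robust prior, 73 with the replicate block and 49 with a pseudocount of 64, and ran from 10 to 69 with 1 array left out. The cause of these changes was not tested. Leaving out an array also leaves fewer samples. The replicate numbers pair the samples by no label: deviations of same-numbered arrays correlated across genes at -0.066, 0.11 and 0.017. Those of arrays with unlike numbers ran from -0.13 to 0.11. None of the 10 passed with or without the block. At an unadjusted limma p under 0.05 there were 3 of the 10 with it and 2 without it. The median difference of all genes was 0.01 as reported and -0.03 under median centring. With 3 arrays a group, the SEs of the 10 genes ran from 0.080 to 0.158.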
